A study of Mus musculus with 20 samples.

Results

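Adm, Stc2, Angptl4, Pdgfb, Bhlhe40, Bhlhe41, Mxi1, Kdm3a, Ndrg1 and Ankrd37 are genes that the hypoxia-inducible factors (HIFs) are known to switch on and that do not encode enzymes of glycolysis. They were picked by gene name for that known regulation, with earlier results of these data known. The study had already reported Ndrg1 as higher in these tumors. All 10 were found among the 54532 genes of the count table, and all 10 passed the filter on low counts, as did 15354 genes in all. RNA came from 10 tumors and from normal kidney of the same 10 C57BL/6 mice, 10 libraries in each group. The mice were LSL-Cas9/+; Pax8 Cre/+, so that Cas9 was made only in cells with a history of Pax8 expression, among them the renal tubule cells. An adeno-associated virus (AAV) with sgRNAs against Vhl, Pbrm1, Keap1 and Tsc1 was injected into the kidney (the Cre-less AAV model), and the normal kidney therefore came from injected animals with the same alleles. Age and sex of the mice were not given in the labels. Bulk tumor tissue also holds host cells, such as those of vessels and blood, that Pax8 Cre does not reach.

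HIFs are pairs of an oxygen-regulated alpha subunit, such as Hif1a or Epas1, and the partner Arnt. In normal oxygen the alpha subunit is hydroxylated and the VHL protein marks it for destruction. Without VHL it accumulates whatever the oxygen level, binds short promoter and enhancer elements with the core ACGTG or GCGTG, and raises transcription. Loss of VHL is the founding event of most clear cell kidney cancers, and the resulting HIF targets include secreted signals for vessels and lipid metabolism, repressors of transcription and stress proteins, besides the better known enzymes of glycolysis.

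Library totals were 18447394 to 24902973 counts for tumors and 14737516 to 26679704 for normal kidneys. CPM below means a gene's share of the library's counts, on a scale of parts per 1000000, after TMM scaling of library sizes, and each log2 fold change is tumor minus normal kidney. Vhl transcripts were lower in tumors (median 17.9 against 25.9 CPM, log2 fold change -0.49, edgeR adjusted p = 0.00179), as were those of Tsc1 (29.9 against 55.5 CPM, -0.61, adjusted p = 0.00871), Pbrm1 did not pass the test (-0.28, adjusted p = 0.23), and Keap1 was higher (0.83, adjusted p = 1.3e-07). Counts over a whole gene do not measure editing at a guide's site. Of 88 cell marker genes tested, 15 were higher and 31 lower in tumors. The sum of proximal tubule markers was 1583 to 13841 CPM in normal kidneys and 1086 to 9718 CPM in tumors. Normal kidneys 5, 7 and 8 were the low ones, with 1583 to 4130 CPM against 10036 to 13841 CPM in the other 7. Their injured tubule markers summed to 28271 to 49418 CPM, against 2054 to 4164 CPM in the other 7 kidneys and 8764 to 36980 CPM in tumors. Of these 6 marker genes, 1 was called higher and 1 lower in tumors over all libraries. Principal cell markers summed to at least 189 CPM in every kidney and to at most 26.3 CPM in any tumor. Tumor 7 held the lowest proximal tubule sum of the tumors and their highest sums of macrophage (2520 CPM), fibroblast and pericyte (4482 CPM), platelet (533 CPM), neutrophil (414 CPM) and adipocyte markers (973 CPM). Normal kidney 9 had the lowest TMM factor, 0.749, and the fewest genes detected, 19996. It held the lowest podocyte sum of the kidneys (120 CPM). Its sums of loop of Henle (9145 CPM), principal cell (1167 CPM) and macrophage markers (648 CPM) were their highest. Xist, an RNA made from the inactive X chromosome, was at least 432 CPM in tumors and kidneys numbered 2 to 6 and stayed under 3 CPM in those numbered 1 and 7 to 10. Adm, Stc2, Bhlhe41, Ndrg1 and Ankrd37 were called higher in both Xist classes, and the values of the others are given with each gene. The share of all genes called higher in both classes was not computed. Within single classes the share called higher was 23% with Xist and 10.1% without it.

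Promoter sequences were available from RefSeq (build GRCm38.p6) for 6 of the 10 genes, as 10 windows that run from upstream of a transcript start to just inside the transcript. Those of the 3 genes in which every tumor exceeded every normal kidney are shown, with each match to ACGTG or GCGTG on either strand in capitals. The windows are chr8:45999801-46000100 on the minus strand for Ankrd37, chr7:110627407-110627706 on the plus strand for Adm and chr6:145865371-145865670 on the minus strand for Bhlhe41.
Ankrd37: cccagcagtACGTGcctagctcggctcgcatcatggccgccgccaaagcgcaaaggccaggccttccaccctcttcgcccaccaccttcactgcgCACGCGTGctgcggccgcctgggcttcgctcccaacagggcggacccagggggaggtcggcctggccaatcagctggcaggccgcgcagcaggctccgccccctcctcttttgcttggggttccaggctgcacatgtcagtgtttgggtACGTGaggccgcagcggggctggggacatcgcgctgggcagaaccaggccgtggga
Adm: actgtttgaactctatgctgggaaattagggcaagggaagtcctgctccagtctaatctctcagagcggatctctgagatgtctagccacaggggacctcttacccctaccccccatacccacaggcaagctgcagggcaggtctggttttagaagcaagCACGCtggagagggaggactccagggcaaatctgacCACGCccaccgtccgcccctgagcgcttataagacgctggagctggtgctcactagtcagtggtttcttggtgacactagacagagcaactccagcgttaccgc
Bhlhe41: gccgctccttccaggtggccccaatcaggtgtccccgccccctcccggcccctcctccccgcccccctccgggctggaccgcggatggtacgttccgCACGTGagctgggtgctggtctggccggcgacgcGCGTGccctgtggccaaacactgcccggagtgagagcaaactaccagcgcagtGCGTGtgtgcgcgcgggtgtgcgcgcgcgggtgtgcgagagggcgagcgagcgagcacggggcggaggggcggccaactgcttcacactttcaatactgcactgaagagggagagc
The Ankrd37 window held 4 matches, of which the nearest began 6 bases before the transcript start and 2 overlapped each other. The Adm window held 2 matches, both read on the opposite strand, which began 90 and 54 bases before the start. The Bhlhe41 window also held 4, counted on both strands, because the palindrome CACGTG farthest from the start matches in each direction. Over the 6 genes, 7 of 10 windows held at least 1 match. The share was 43.8% over 32851 promoters of all genes and 59.4% over 14284 promoters of the genes tested, so that matches of this kind were common. Stc2 had 2 matches, and of 3 windows each, Kdm3a had a match in 1 and Mxi1 in 2. A match is a run of letters and does not show that HIF binds there.

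Most of the 10 genes were higher in tumors, by very different amounts. Of the 10, 9 passed edgeR's quasi-likelihood test at a Benjamini-Hochberg adjusted p of 0.05, all upward, against 23.6% of all genes tested that were called higher and 23.8% that were called lower. Their median log2 fold change was 1.24, against -0.02 over all genes. With limits of 1 on the log2 fold change and 0.001 on the unadjusted p, 6 were higher (Ankrd37, Adm, Bhlhe41, Stc2, Ndrg1 and Mxi1), against 8.85% of all genes, and 0 were lower, against 10.2%. In Ankrd37, Adm and Bhlhe41 no tumor overlapped a normal kidney, a pattern seen in 5.87% of all genes, while the opposite pattern was seen in 0 of the 10 and in 4.74% of all. Without tumor 7 Ndrg1 joined them (4 of 10 genes, against 8.51%), without normal kidney 9 the same 3 genes stood (against 7.01%), and without tumor 7 and normal kidney 9 together Mxi1 did too (5 of 10 genes, against 10.1%). Without normal kidneys 5, 7 and 8, the 3 with high injured tubule markers, 9 genes were again called higher, and Kdm3a joined the 3 genes without overlap (4 of 10 genes, against 12% of all). Kidney 5 was the highest kidney in Pdgfb, Bhlhe40, Bhlhe41 and Kdm3a and kidney 7 in Adm, and the part of injury markers in these values was not tested. Within the libraries with Xist alone 7 of the 10 were called higher (against 23% of all genes), and within those without it 6 were (against 10.1%), with 5 tumors and 5 kidneys each. In bulk tissue, a change in how many cells of a type are present cannot be told apart from a change in RNA per cell.

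**Figure D1:**
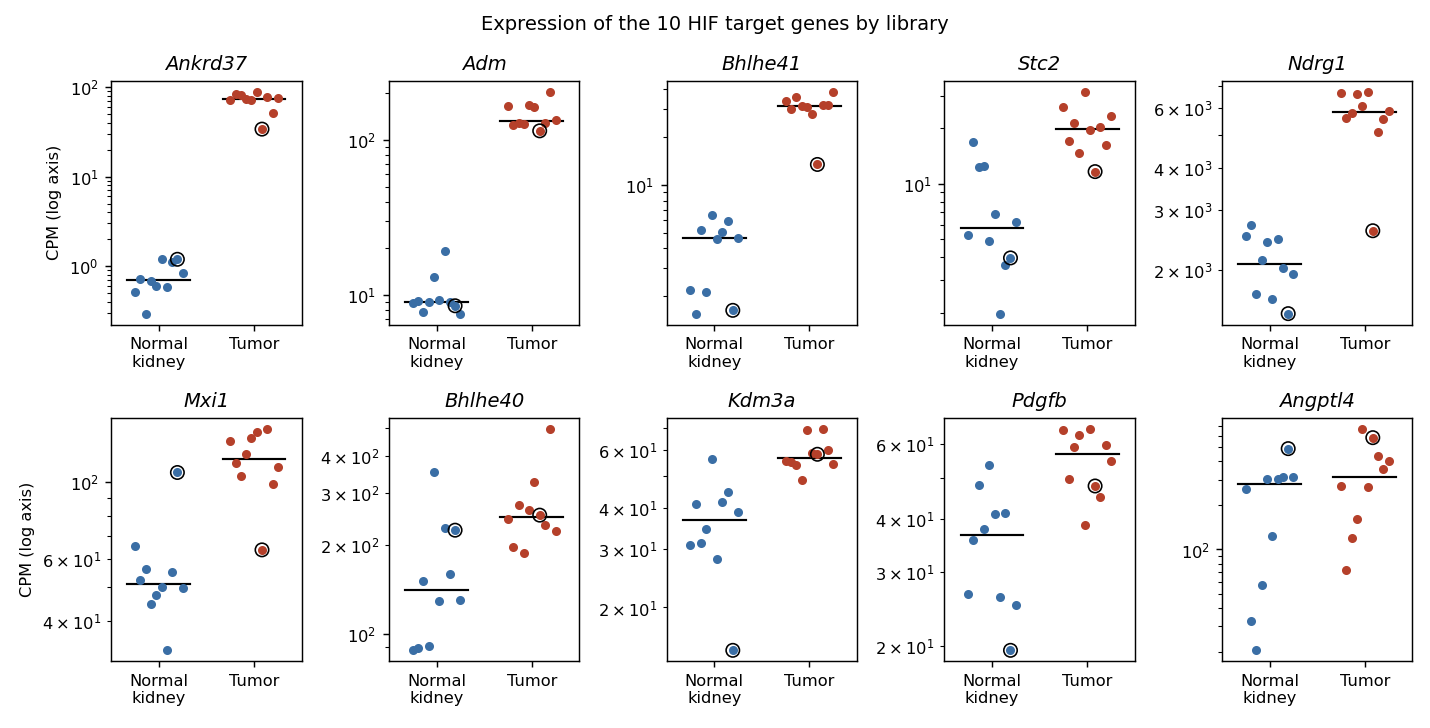
CPM of each of the 10 genes on log axes in the 10 normal kidneys (blue) and 10 tumors (red), 1 point per library, with the group median as a bar and rings around normal kidney 9 and tumor 7. The groups are fully apart for Ankrd37, Adm and Bhlhe41, tumor 7 lies low in Bhlhe41, Ndrg1 and Mxi1, and the Angptl4 values of the 2 groups overlap.

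Among the secreted signals Adm changed most. It encodes adrenomedullin, a peptide hormone that widens vessels and acts on endothelial cells. Its transcripts were measured at 114 CPM in the lowest tumor, a median of 132 and 204 in the highest, against 7.55, 8.94 and 19.1 CPM in normal kidneys. The lowest tumor was tumor 7 and the highest kidney was kidney 7, and even these were well separated. The log2 fold change was 3.85 (standard error 0.175, edgeR adjusted p = 7.0e-13), a 14.4-fold rise with a 95% interval of 11.4 to 18.3. By p-value Adm stood 9th of the 15354 genes tested. Across all alternatives its log2 fold change stayed between 3.73 and 4.09.

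Adm2, which encodes the related peptide intermedin, rose along with Adm, from a median of 1.65 to 24.7 CPM (log2 fold change 3.82, standard error 0.27, edgeR adjusted p = 3.4e-10). Per base of gene length, the log2 ratio of Adm to Adm2 was 2.20 ± 0.44 (SD, n = 10) among tumors and 2.18 ± 0.72 among normal kidneys, a difference of 0.02 that did not pass (permutation test, adjusted p = 0.949 over 8 ratios). Ratios to a relative are given as mean ± SD over the 10 libraries of a group throughout. Both peptides act through Calcrl joined to a Ramp protein. Calcrl was lower in tumors (median 8.69 against 24.6 CPM, log2 fold change -1.13, edgeR adjusted p = 0.000413), with 5 tumors below every kidney. Ramp2 (log2 fold change -0.59, adjusted p = 0.0652) and Ramp3 (0.02, adjusted p = 0.942) did not pass the test. Ramp1 was called higher (1.54, adjusted p = 0.0433) but lost the call under 16 alternatives. Ackr3, a scavenger receptor that can take up adrenomedullin, was higher by 0.71 on the log2 scale (adjusted p = 0.0176), and by 0.45 (adjusted p = 0.0754) without kidneys 5, 7 and 8. Ligand and receptor transcripts thus moved in opposite directions for Adm and Calcrl. Of 12 endothelial marker genes 1 was higher (Cdh5, 0.83) and 3 were lower, with Tek (-1.70) and Ptprb (-0.97) leading, and the summed markers ran from 513 to 1592 CPM in tumors and from 752 to 1075 CPM in kidneys. Their part in the Calcrl values was not tested.

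Stc2 encodes stanniocalcin 2, a secreted glycoprotein made under hypoxia and under stress of the endoplasmic reticulum. The lowest, median and highest values were 11.7, 20.0 and 31.5 CPM in tumors and 1.97, 5.73 and 16.8 CPM in normal kidneys. Of the tumors 7 lay above every kidney, and kidneys 2, 3 and 4 were the high ones. This came to a log2 fold change of 1.44 (standard error 0.309, edgeR adjusted p = 0.000637), or 2.71-fold. Kidneys 5, 7 and 8 held 1.97 to 4.91 CPM, and without them it was 1.14 (adjusted p = 0.00206). Among libraries with Xist the kidneys reached 4.91 to 16.8 CPM and the log2 fold change was 0.94 (adjusted p = 0.0321), and among those without it the kidneys stayed between 1.97 and 6.19 CPM and the log2 fold change was 2.22 (adjusted p = 0.00101). The difference between these values was not tested.

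For the related hormone gene Stc1, itself a known HIF target, the log2 fold change came to 0.07 (standard error 0.28, edgeR adjusted p = 0.852). Stc2 against Stc1 gave a log2 ratio of 1.38 ± 0.72 in tumors and -0.14 ± 0.75 in kidneys (permutation test, adjusted p = 0.000928). The balance of the 2 transcripts thus leaned to Stc2 in tumors. Stc2 is also driven by the stress factor ATF4, and of 14 genes listed as ATF4 targets 7 were higher and 1 lower, with a median log2 fold change of 0.95. The largest rises were in Slc7a11, the cystine transporter (5.02), and Ddit3 (2.37), and the fall was in Phgdh, which starts serine synthesis (-1.16). The part of ATF4 in these values was not tested. Stc2 was not correlated with any of the 14 among tumors after adjustment, their median r being -0.11. In normal kidneys their median r was -0.51, and 1 of them, Psat1, passed by both r and rho (r = -0.84). The part of Xist class in these kidney correlations was not tested.

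Angptl4 encodes a secreted inhibitor of lipoprotein lipase, the enzyme that frees fatty acids from circulating fat. Tumors ranged from 72.7 through a median of 313 to 667 CPM and normal kidneys from 20.4 through 281 to 489 CPM. Only tumors 5 and 7 exceeded every kidney. A log2 fold change of 0.59 (standard error 0.487, edgeR adjusted p = 0.333) did not pass, and its 95% interval ran from a 0.777-fold to a 2.92-fold level. With a block for library number, whose meaning is not stated, it was 0.88 (adjusted p = 0.00985). The spread within groups was the widest of the 10 genes, with coefficients of variation of 58.2% in tumors and 69.9% in kidneys. The low libraries carried the same numbers in both groups, with 72.7 to 161 CPM in tumors 2, 3 and 4 and 20.4 to 57.1 CPM in kidneys 2, 3 and 4. Within the Xist classes the log2 fold change was 1.23 (adjusted p = 0.214) with Xist and 0.30 (adjusted p = 0.465) without it.

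Around Angptl4 the lipase system moved strongly. Lpl, which encodes lipoprotein lipase, was 39.0 CPM at the median of tumors and 413 CPM at that of kidneys (log2 fold change -2.97, standard error 0.314, edgeR adjusted p = 1.2e-07), and every tumor was below every kidney. Gpihbp1, which anchors the enzyme to the capillary wall, was higher (2.74, adjusted p = 2.2e-06), as were Lipc, the gene of hepatic lipase (2.71, adjusted p = 2.5e-05, at no more than 2.79 CPM in any library), and the lipase maturation factor Lmf1 (0.47, adjusted p = 0.0154). Lmf1 lost the call with upper quartile scaling (0.35, adjusted p = 0.0574) and without kidneys 5, 7 and 8 (0.35, adjusted p = 0.0756). Among relatives of Angptl4, Angptl2 rose from a median of 45.7 to 401 CPM (3.30, adjusted p = 9.95e-11) and Angptl7 from 2.18 to 40.9 CPM (3.22, adjusted p = 0.000965). Angptl6 was not called (0.43). Angptl4 against Angptl2 stood at a log2 ratio of 0.43 ± 1.11 in tumors and 2.89 ± 2.01 in kidneys (permutation test, adjusted p = 0.00495). Per base of gene, Angptl4 was thus on average the more abundant in kidneys by a wide margin and in tumors by a narrow one. The ratio ran from -1.36 to 2.37 in tumors and from -0.39 to 5.90 in kidneys, so Angptl2 led in some libraries of each group.

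Angptl4 is also a target of the fasting-responsive nuclear receptor PPARalpha. Of 15 other PPARalpha targets tested, 0 were higher and 7 lower in tumors, with a median log2 fold change of -0.70, against -0.02 over all genes. The largest falls were in the fatty acid hydroxylases Cyp4a10 (-4.08) and Cyp4a14 (-3.65). Over these 15 genes the median r with Angptl4 was 0.59 in tumors and 0.75 in normal kidneys. At an unadjusted permutation p under 0.05 for r, 6 passed in tumors and 9 in kidneys. Angptl4 followed Pdk4, the kinase that shuts off pyruvate oxidation in fasting, within each group, though not past adjustment by rho in kidneys. Pdk4 was singled out after its values were seen from 83 relations computed per group. In tumors Pearson's r of log2 CPM was 0.97 and Spearman's rho 0.96 (permutation tests over 10 libraries, adjusted p = 0.00083 and 0.0029), falling to r = 0.95 when the 2 tumors farthest from the Angptl4 median were left out. In normal kidneys r was 0.86 and rho 0.81 (permutation tests, adjusted p = 0.041 and 0.077), with r = 0.82 when the 2 farthest were left out. Without tumor 7 the tumor r was 0.97, and without normal kidney 9 the kidney r was 0.86. Pdk4 ran from 35.8 to 2855 CPM in tumors and from 26.3 to 2628 CPM in kidneys and did not differ between the groups past the test (log2 fold change 0.40, adjusted p = 0.718). Libraries 2, 3 and 4, the lowest in Angptl4, are among those with Xist. With each value taken as its deviation from the mean of its Xist class, r was 0.96 in tumors and 0.81 in kidneys (exact permutation tests within classes, p = 0.000625 and 0.0181), and with ranks within a class it was 0.90 and 0.70 (p = 0.00431 and 0.0522), unadjusted and computed for this pair alone. Slc25a20, which carries acylcarnitines into mitochondria, passed with Angptl4 by both measures in kidneys (r = 0.83, rho = 0.92, permutation tests, adjusted p = 0.041 and 0.0313) and by rho alone in tumors (rho = 0.96, adjusted p = 0.0029). Adipocytes also make Angptl4, and their summed markers ran from 7.02 to 973 CPM in tumors and from 4.21 to 363 CPM in kidneys. The highest Angptl4 of all kidneys was in kidney 9, which had their lowest adipocyte sum, and the second highest of all tumors was in tumor 7, which had their highest. The part of adipocytes in the Angptl4 values was not tested.

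**Figure D2:**
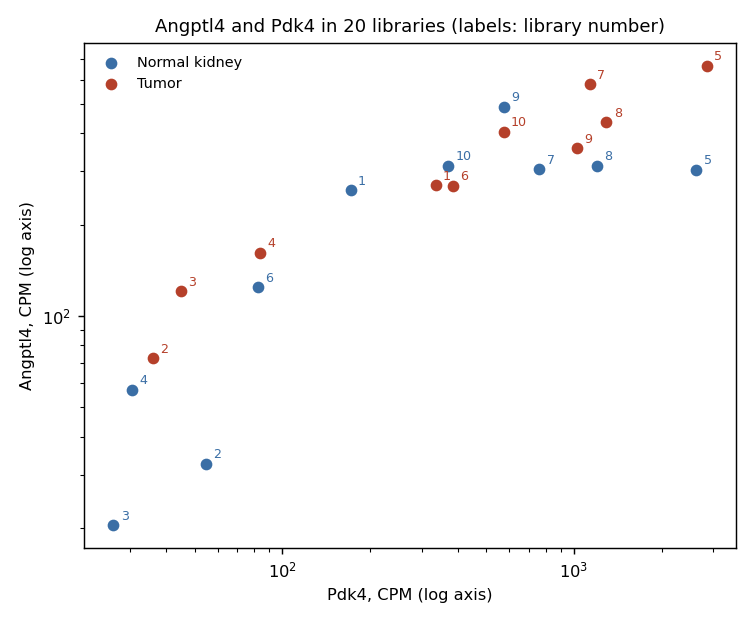
CPM of Angptl4 against CPM of Pdk4 on log axes, 1 point per library with its number, tumors in red and normal kidneys in blue. Libraries 2, 3 and 4 of both groups sit at the lower left, and library 5 of both groups has the highest Pdk4.

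Pdgfb encodes the B chain of platelet-derived growth factor, by which endothelial cells recruit pericytes. Tumors measured from 38.7 through 56.9 to 65.2 CPM and normal kidneys from 19.5 through 36.7 to 53.5 CPM, and 6 tumors were above every kidney. The rise was 0.63 on the log2 scale (standard error 0.162, edgeR adjusted p = 0.00306). It came to 0.33 (adjusted p = 0.125) in the libraries with Xist and to 0.98 (adjusted p = 0.00832) in those without, a contrast that was not tested. Pdgfa and Pdgfc, which encode other chains, rose more, by 1.29 (adjusted p = 1.05e-06) and 0.98 (adjusted p = 2.6e-06), with every tumor above every kidney. Pdgfb against Pdgfa stood at a log2 ratio of -0.19 ± 0.41 in tumors against 0.46 ± 0.59 in kidneys (permutation test, adjusted p = 0.0139). Per base of gene, the A chain transcript was thus on average the more abundant in tumors and the B chain in kidneys. Of the receptors, Pdgfra was lower (-1.62, adjusted p = 0.034), with 9 tumors below every kidney and tumor 7 at 130 CPM above all kidneys. Leaving out tumor 7 gave Pdgfra a log2 fold change of -3.07, and 11 other alternatives lost its call, among them the one without kidneys 5, 7 and 8 (-1.39, adjusted p = 0.106). Pdgfrb, the pericyte receptor for the B chain, was not called (-0.51, adjusted p = 0.201), and Pdgfd was not either (-0.32, adjusted p = 0.195). Fibroblast and pericyte markers summed to 372 to 4482 CPM in tumors, the highest in tumor 7, and to 287 to 1009 CPM in kidneys.

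The 4 regulators of transcription were all higher in tumors. The largest rise was in Bhlhe41, which encodes a repressor that binds CACGTG elements and damps the circadian clock. Tumors gave 13.5, 31.5 and 38.4 CPM as lowest, median and highest values and normal kidneys 1.56, 4.64 and 6.49 CPM. Tumor 7 was the lowest, and the other 9 tumors lay between 28.0 and 38.4 CPM. The log2 fold change was 2.94 (standard error 0.269, edgeR adjusted p = 1.4e-08), a 7.68-fold rise with a 95% interval of 5.33 to 11.1.

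Its close relative Bhlhe40 was far more abundant and changed less. It measured 188, 249 and 496 CPM in tumors and 87.7, 141 and 354 CPM in kidneys, with 1 tumor (tumor 9) above every kidney. Its log2 fold change was 0.72 (standard error 0.244, edgeR adjusted p = 0.0199). It was 0.59 (adjusted p = 0.206) with Xist and 0.81 (adjusted p = 0.106) without it, neither past the threshold, and 1.07 (adjusted p = 0.000615) without kidneys 5, 7 and 8, which held 160 to 354 CPM. As a log2 ratio, Bhlhe40 to Bhlhe41 dropped from 5.91 ± 0.72 in kidneys to 3.65 ± 0.58 in tumors (permutation test, adjusted p = 4.0e-05), and the ranges did not overlap. The share of other gene pairs whose ratios do not overlap was not computed. Of 15 core clock genes 1 was higher, Cry1 (0.77, adjusted p = 0.0164), and 6 were lower, led by the output factors Hlf (-2.73) and Dbp (-2.41). Their median log2 fold change was -0.31. Bhlhe41 followed the repressor gene Cry2 in normal kidneys (r = 0.95, rho = 0.89, permutation tests over 10 libraries, adjusted p = 0.0149 and 0.0313, r = 0.94 without the 2 farthest, Cry2 being noticed after its values were seen), and passed with 0 of the 15 clock genes in tumors. The hour at which tissue was taken was not given.

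Mxi1 encodes a partner of Max that represses genes Myc activates. Tumors ranged from 63.9 through 117 to 142 CPM and normal kidneys from 32.9 through 51.1 to 107 CPM. Tumor 7 was low and kidney 9 high, and 7 tumors exceeded every kidney. Mxi1 was higher by 1.05 on the log2 scale (standard error 0.173, edgeR adjusted p = 4.0e-05). It was 1.11 without tumor 7 and 1.19 without kidney 9. In libraries with Xist, which hold neither of these, it was 1.26 (adjusted p = 4.0e-06), and in those without Xist 0.82 (adjusted p = 0.0902).

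The other members of the Max network moved both ways. Myc itself rose from a median of 12.1 to 68.8 CPM (log2 fold change 1.58, edgeR adjusted p = 0.00182), although 1 kidney reached 89.7 CPM. Mxd1, another Max-binding repressor, rose by 1.16 (adjusted p = 6.8e-06) with every tumor above every kidney. Max was called higher by 0.29 (adjusted p = 0.0113), a call lost under 3 other scalings. Mycn fell by 1.57 on the log2 scale (adjusted p = 4.1e-05) and Mxd4 by 0.28 (adjusted p = 0.00792), and Mycl, Mxd3, Mnt, Mga and Mlx were not called. Mxi1 against Mxd4 stood at a log2 ratio of 0.71 ± 0.40 in tumors and -0.65 ± 0.47 in kidneys (permutation test, adjusted p = 4.0e-05). Of these 2 repressors, Mxd4 was the more abundant per base in most kidneys and Mxi1 in most tumors.

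Kdm3a encodes a histone demethylase that removes a repressive methyl mark and itself needs oxygen. It stood at 48.7, 56.9 and 69.5 CPM in tumors and at 14.8, 36.8 and 56.4 CPM in normal kidneys, with kidney 9 at the bottom and 5 tumors above every kidney. Its log2 fold change was 0.68 (standard error 0.159, edgeR adjusted p = 0.00127), and 0.58 without kidney 9. Kidneys 5, 7 and 8 were the 3 highest kidneys, at 41.7 to 56.4 CPM, and without them it was 0.90 (adjusted p = 8.8e-05). In the libraries with Xist it was 0.55 (adjusted p = 0.0295) and in those without 0.81 (adjusted p = 0.0538). Tumors were tight around their median, with a coefficient of variation of 11.2%. Its relative Kdm3b went the other way (-0.53, standard error 0.163, adjusted p = 0.0113, and -0.37, adjusted p = 0.0789, without kidneys 5, 7 and 8), and Jmjd1c, the remaining member, was not called (-0.24). Kdm3a against Kdm3b gave a log2 ratio of 1.30 ± 0.20 in tumors and 0.08 ± 0.15 in kidneys (permutation test, adjusted p = 4.0e-05). Although Kdm3a alone overlapped between groups, its ratio to Kdm3b put all 10 tumors (0.89 to 1.54) above all 10 kidneys (-0.21 to 0.26), kidney 9 included. This ratio combines the rise of Kdm3a with the fall of Kdm3b, and how many other gene pairs separate the groups was not computed.

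**Figure D3:**
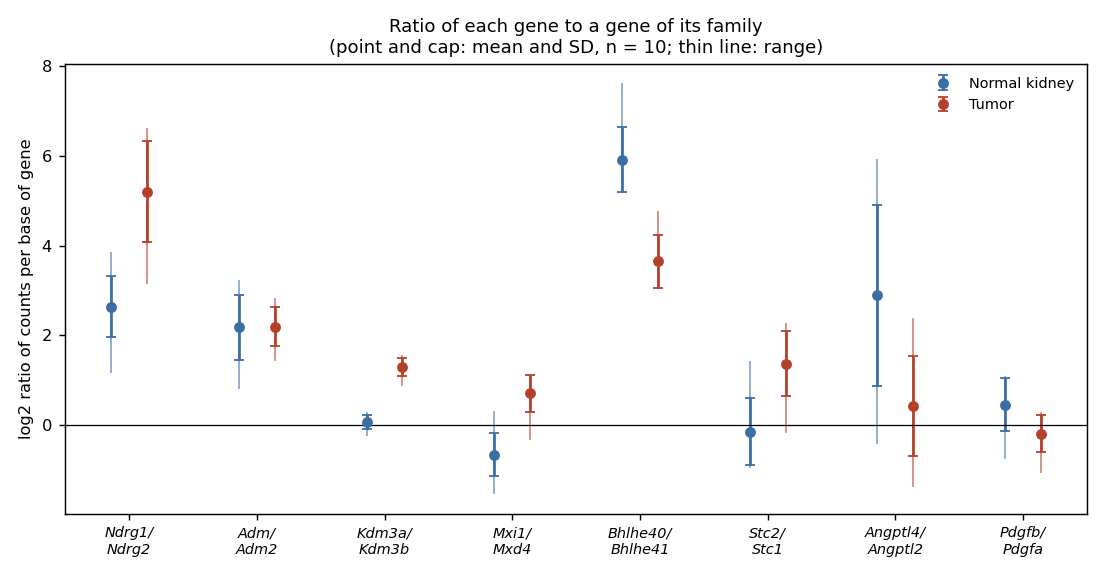
Log2 ratio, per base of gene length, of 8 genes to a gene of the same family in normal kidneys (blue) and tumors (red), as mean and SD over 10 libraries with the range as a thin line. Adm to Adm2 is level between the groups, Bhlhe40 to Bhlhe41, Angptl4 to Angptl2 and Pdgfb to Pdgfa are lower in tumors, and the other 4 ratios are higher.

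Ndrg1, which encodes a cytoplasmic protein induced by several kinds of stress, was by far the most abundant of the 10. Tumors measured 2608, 5857 and 6701 CPM as lowest, median and highest and normal kidneys 1483, 2084 and 2711 CPM. Tumor 7 fell among the kidneys, and the next lowest tumor was at 5118 CPM. Ndrg1 was higher by 1.43 on the log2 scale (standard error 0.169, edgeR adjusted p = 5.2e-07), and 1.51 without tumor 7. Ndrg2 (-0.96, adjusted p = 0.014) and Ndrg3 (-1.09, adjusted p = 1.1e-06) were both lower in tumors, and Ndrg4 was not called (0.18). As a log2 ratio, Ndrg1 to Ndrg2 went from 2.64 ± 0.67 in kidneys to 5.20 ± 1.12 in tumors (permutation test, adjusted p = 4.0e-05). Only Ndrg1 of the 4 family members was called higher.

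Ankrd37 encodes a small ankyrin repeat protein of poorly known function. It had the smallest p-value of all 15354 genes. Tumors measured 33.9, 74.0 and 87.6 CPM and normal kidneys 0.296, 0.706 and 1.21 CPM, which in kidneys rests on 6 to 23 counts per library. Tumors 7 and 9 (51.8 CPM) were the lowest tumors and still far above every kidney. This gave a log2 fold change of 6.51 (standard error 0.244, edgeR adjusted p = 1.4e-13), a 91.4-fold rise with a 95% interval of 65.6 to 127. Its annotated span (chromosome 8, 45996902 to 46005707, minus strand) overlaps Lrp2bp on the opposite strand over 6405 bases, and whether reads were assigned by strand is not given in the sources used here. Lrp2bp was itself counted at a median of 215 reads in tumors and 8 in kidneys, against 1438 and 15.5 for Ankrd37. Ufsp2, also on the opposite strand, overlaps Ankrd37 over 57 bases, at a median of 693.5 reads in tumors and 577.5 in kidneys. The share of reads that each of these genes gave to another is unknown. Genes that overlap the other members held few counts beside them. Over all the members' relatives and partners, 35 of 37 were tested, and 14 were higher and 8 lower in tumors.

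Per kilobase of gene, which lets genes be compared, the order of levels was different in the 2 tissues. In tumors Ndrg1 (median 888 CPM per kb) led, followed by Angptl4 (95.4), Adm (81.6), Bhlhe40 (52.9), Ankrd37 (48.1), Mxi1 (20.7), Pdgfb (13.7), Kdm3a (6.92), Bhlhe41 (4.69) and Stc2 (3.86). Of the neighbours in that order, the ranges of Ndrg1 and Angptl4, of Pdgfb and Kdm3a and of Kdm3a and Bhlhe41 did not overlap, and the other 6 pairs did. In normal kidneys the order was Ndrg1 (316 CPM per kb), Angptl4 (85.6), Bhlhe40 (29.9), Mxi1 (9.09), Pdgfb (8.82), Adm (5.52), Kdm3a (4.47), Stc2 (1.11), Bhlhe41 (0.691) and Ankrd37 (0.459), and only Ndrg1 stood clear of its neighbour. Ankrd37 moved from 10th to 5th and Adm from 6th to the third place. Across the 10 genes the kidney level and the log2 fold change had a Spearman rho of -0.61, a description that shares the kidney values between both measures.

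The members were set beside 49 other genes known as HIF targets outside glycolysis, of which 48 were tested (Epo was not, and Stc1 is counted here too). In tumors 31 were higher (against 23.6% of all genes tested) and 4 lower (against 23.8%), with a median log2 fold change of 0.94. In 18 every tumor was above every kidney, a pattern seen in 5.87% of all genes. The largest rises were in Car9, a carbonic anhydrase (5.20, from a median of 2.70 to 260 CPM), Egln3, an oxygen sensor that marks HIF for VHL (4.34), and Loxl2, a matrix cross-linking enzyme (3.94). Those of Ankrd37 and Adm were thus of the same order. Enzymes of matrix and secretory pathway were called higher in 7 of 8, lipid and glycogen genes in 6 of 6, and genes of mitochondria, autophagy and mTOR in 5 of 6. Secreted proteins and receptors split, with 4 of 9 higher and 3 lower, and chromatin and transcription genes were called higher in 2 of 6. Vegfa, the vessel growth factor, was higher by 0.66 (edgeR adjusted p = 0.0162) but lost the call under 3 alternatives, among them library totals (adjusted p = 0.094). The largest falls were in Tgfa (-2.07, adjusted p = 0.000747), Wsb1 (-0.61, adjusted p = 0.00602, lost under 1 alternative) and Flt1 (-0.60, adjusted p = 0.0414), of which Flt1 lost the call under 19 alternatives. The transcripts of the alpha subunits were lower in tumors, Epas1 by -1.02 (adjusted p = 0.000763) and Hif1a by -0.67 (adjusted p = 0.028, lost under 6 alternatives), and Arnt was not called (0.06).

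**Figure D4:**
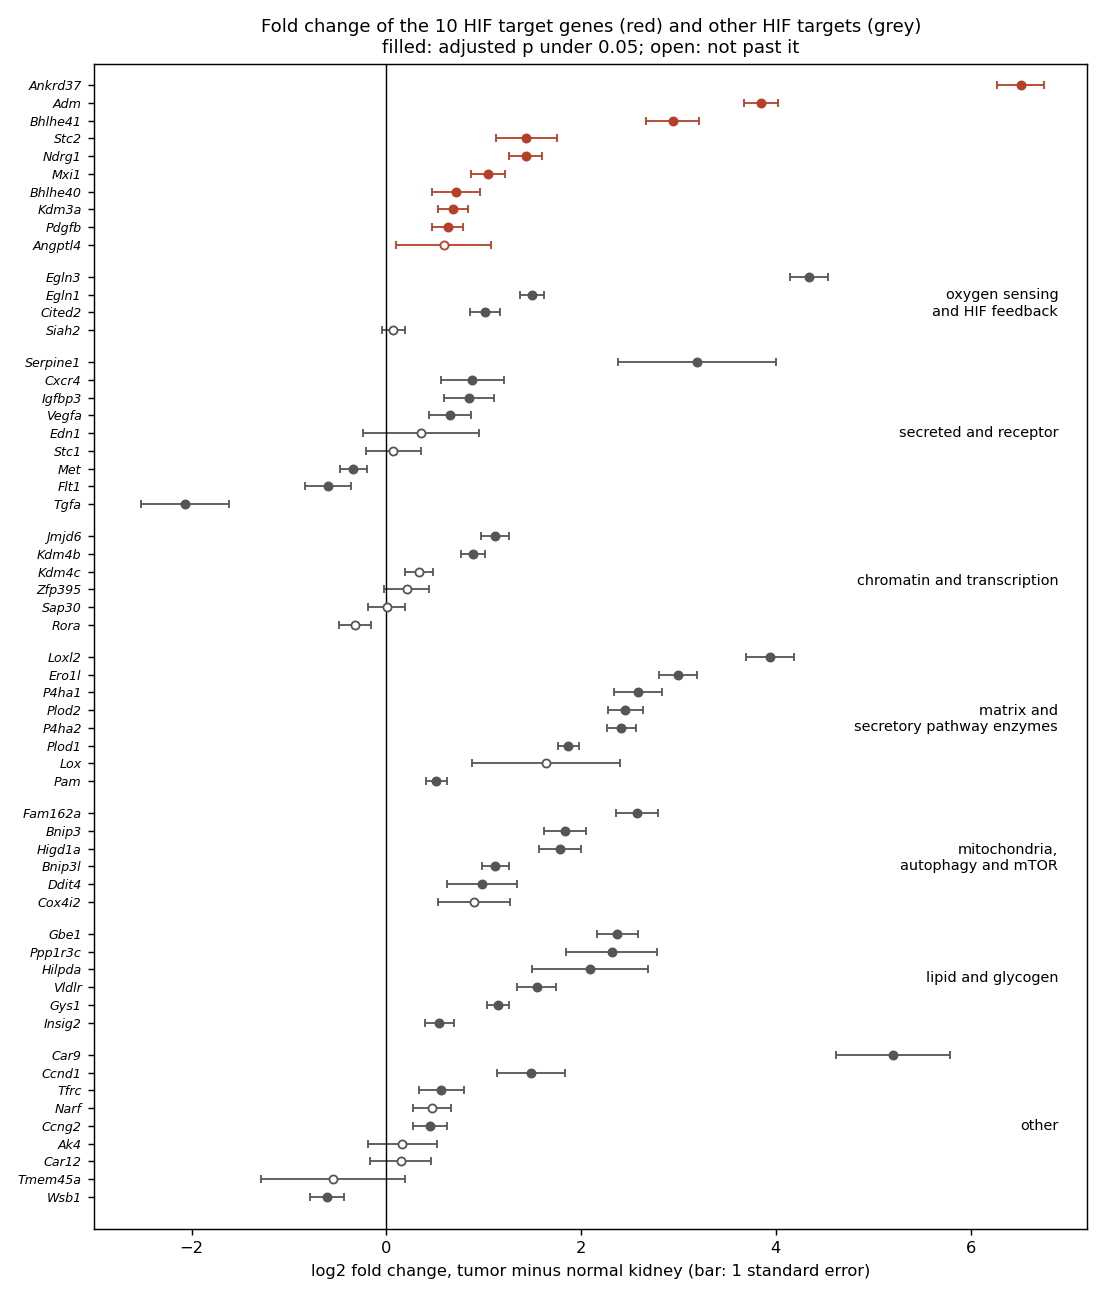
Log2 fold change (tumor minus normal kidney) of the 10 genes (red) and of 48 other HIF targets by role (grey), with bars of 1 standard error, filled where the edgeR adjusted p is under 0.05. Ankrd37 at 6.51 lies farthest to the right of all, 9 red points are filled and Angptl4 is open.

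Spread among libraries was measured by mean absolute deviation. No difference between tumors and kidneys passed a permutation test after adjustment over the 10 genes (adjusted p from 0.448 to 0.915). The spread was smaller in tumors in each of the 10, but how many of all genes tested share this was not computed. By coefficient of variation Ndrg1 went the other way, at 21.1% in tumors and 19.8% in kidneys. Coefficients of variation ran from 11.2% (Kdm3a) to 58.2% (Angptl4) in tumors and from 19.8% (Ndrg1) to 69.9% (Angptl4) in kidneys. Of 45 pairs of members, 0 were correlated past adjustment within tumors and 0 within kidneys (7 and 3 at an unadjusted permutation p under 0.05 for r). The strongest in kidneys was between Stc2 and Angptl4, with r = -0.86 and rho = -0.82 (permutation tests over 10 libraries, adjusted p = 0.0513 and 0.259, r = -0.92 without the 2 farthest). Both genes differed between kidneys with and without Xist, at medians of 12.4 and 3.96 CPM for Stc2 and 57.1 and 312 CPM for Angptl4. The part of Xist class in this correlation was not tested. The strongest in tumors, between Ndrg1 and Bhlhe41 (r = 0.89, r = -0.20 without the 2 farthest), and that between Mxi1 and Ankrd37 (r = 0.86, r = 0.49 without the 2 farthest) include tumor 7, which was low in all 4 genes. Tumor 7 was the lowest tumor in 6 of the 10 genes, Adm, Stc2, Bhlhe41, Mxi1, Ndrg1 and Ankrd37, with a median deviation of -0.51 on the log2 scale, while its Angptl4 was the second highest. Its high sums of macrophage, stromal, platelet, neutrophil and adipocyte markers are given above, and their part in these values was not tested.

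**Figure D5:**
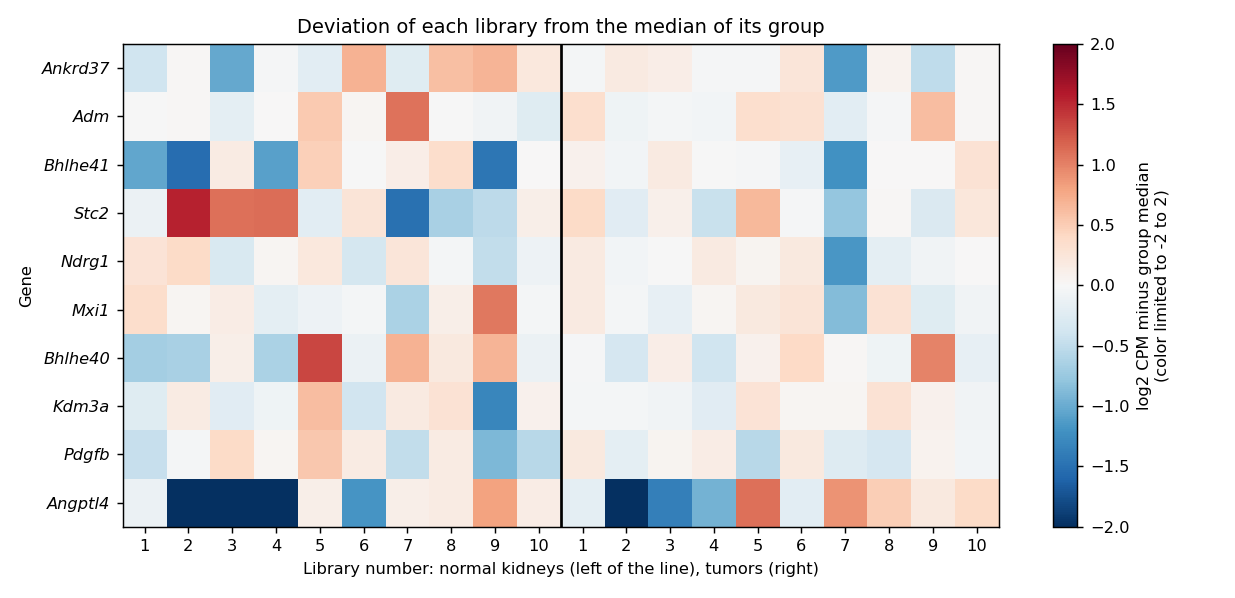
Log2 CPM of each gene in each library minus the median of its group, red above and blue below, with normal kidneys 1 to 10 left of the line and tumors 1 to 10 right of it (color limited to -2 to 2). Tumor 7 is blue in Ankrd37, Bhlhe41, Ndrg1 and Mxi1 and red in Angptl4, and Angptl4 is dark blue in kidneys 2, 3 and 4 and in tumor 2.

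The gene most like each member was taken as the tested gene with the highest Spearman correlation of deviations from the group means over the 20 libraries. These were Tmem205 for Mxi1 (0.92), Serinc5 for Kdm3a (0.90), Lgals4 for Angptl4 (0.90), Tbrg1 for Bhlhe40 (0.87), Tuft1 for Adm (0.84), Cnst for Stc2 (0.84), Sept2 for Bhlhe41 (0.84), Hspa13 for Pdgfb (0.83), Itih3 for Ankrd37 (0.79) and Gstp2 for Ndrg1 (0.77). None of them is a member or in the list of other HIF targets. Each is the highest value over all other genes tested, in libraries that share tissue and depth.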

How the data were processed

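Tissue was frozen and pulverized, RNA was extracted with Trizol, and a company prepared poly A enriched libraries and sequenced them. The authors deposited whole-number counts of reads per gene for 54532 genes and 20 libraries, without normalization. The genome build in the submitters' processing notes is mm10. Aligner, counting tool and strand setting are not given in the sources used here. Gene lengths came from the deposited table.

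Genes were filtered with edgeR 4.0.16 (R 4.3.3) at a count minimum of 10, scaled by TMM and compared by its quasi-likelihood test over all 20 libraries with no covariate, adjusted over 15354 genes by the Benjamini-Hochberg method. Single values are CPM, or log2 CPM with a prior count of 2. Ratios used counts plus 0.5 per base of gene, and permutation tests were two-sided with 100000 resamples (smallest p 1e-05). Intervals are 95%. Alternatives were RLE size factors, upper quartile and no scaling, sizes without the 20 most abundant genes, no filter, limma 3.58.1 (voom, with and without quantile scaling), DESeq2 1.42.0, a block for library number, and each library left out. Added after seeing the data were Xist class as a covariate and the fit without normal kidneys 5, 7 and 8. Tumor 7 and normal kidney 9 were also left out together. The scripts were tested on simulated data.

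The members, and the lists of other HIF targets, paralogs and partners, clock, PPARalpha, ATF4 and immediate early genes and cell markers, were chosen with earlier results of these data known. All members are named, the largest rises and falls of the other lists that were called (3 each for HIF targets, 2 each for the rest), Vegfa, Hif1a and Epas1, and tested paralogs or partners, of which 1 is not reported here. Other names were chosen after their values were seen, and so was the split by Xist. Among the members, counts were lowest in Ankrd37, at 6 to 23 counts in kidneys.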

Additional observations from a re-analysis of the deposited data

Results flagged for a closer look

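Of 36 groups of 10 libraries checked for a value far from the rest (10 genes and 8 ratios in each tissue), 6 had one. For a single group chance alone gives about 1 in 20. The ratios reuse the genes and the groups share libraries, so the checks are not independent and these shares cannot be compared. Tumor 7 was far below the other tumors in Bhlhe41 (3.76 log2 CPM, the next lowest 4.81), in Mxi1 (6.00, the next 6.63) and in Ndrg1 (11.35, the next 12.32). Its log2 ratio of Mxi1 to Mxd4 was -0.29, the next lowest tumor being at 0.38. Normal kidney 9 was far below the other kidneys in Kdm3a (3.90 log2 CPM, the next lowest 4.82). Its log2 ratio of Bhlhe40 to Bhlhe41 was 7.59, the next highest kidney being at 6.33. The 6 values come from these 2 libraries, which also stood apart in cell markers and in scaling factor.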

How the results depend on the processing

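The count of members called higher stayed at 9 under every alternative but the replicate block, which gave 10, and the count past the fold and p limits stayed between 5 and 6. In all, 319 values of the members' log2 fold changes kept direction and side of the threshold and 1 did not. The count without overlap was 3, 4 without normal kidneys 5, 7 and 8 together and 5 without tumor 7 and normal kidney 9 together. The other HIF targets called lower numbered 4, between 2 and 5 when single libraries were left out, 6 without tumor 7 and normal kidney 9 together and 2 without normal kidneys 5, 7 and 8 together. Flt1 and Met lay near the threshold. The other HIF targets called higher numbered 27 to 32. The difference (tumor minus kidney) in the log2 ratio of Adm to Adm2 was -0.040 without tumor 7 and 0.068 without normal kidney 9. The difference in spread of Mxi1 was -0.11 without tumor 7 and 0.053 without normal kidney 9, and that of Ndrg1 was -0.14 and 0.0030. None of these passed its test before or after. With library totals or the upper quartile as scaling, the median over all genes tested shifted from -0.02 to -0.14 on the log2 scale.

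The tissue is described as coming from the same 10 mice, but nothing states that a number marks a mouse. Deviations of same-numbered libraries correlated between 0.19 and 0.38 for 9 numbers and at -0.14 for number 9, and 8 of 10 libraries correlated best with their own number. Xist put both libraries of a number on the same side in 10 of 10 numbers, a hint from the data and not from the design. With the replicate block Angptl4 had a log2 fold change of 0.88 and passed the threshold (edgeR adjusted p = 0.00985). The block changed no other member's call.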

Other observations

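Immediate early genes respond within minutes to handling, injury or growth factors. Of 13 tested (14 listed), 2 were higher in tumors, Atf3 (log2 fold change 1.69, edgeR adjusted p = 0.0097) and Jun (0.78, adjusted p = 0.0408), and 1 was lower, Nr4a1 (-1.42, adjusted p = 0.0389). Their median log2 fold change was -0.50. Stc2 was inversely correlated with Psat1 in normal kidneys (r = -0.84, rho = -0.88, permutation tests over 10 libraries, adjusted p = 0.041 and 0.0313 over 83 relations, r = -0.75 without the 2 farthest). Psat1, a serine synthesis gene in the list of ATF4 targets, was noticed after its values were seen. The kidney median of Stc2 was 12.4 CPM with Xist and 3.96 CPM without it, and the part of Xist class in this correlation was not tested.

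Macrophage markers were called higher in 7 of 11, platelet markers in 3 of 4 tested, and fibroblast and pericyte markers in 2 of 9, while loop of Henle, principal cell and intercalated cell markers were lower in 5 of 5 each.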
